A study of Mus musculus with 9 samples.

Results

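The genes described are 38 members of the autophagy and lysosome system, chosen by symbol: 22 act in building autophagosomes or selecting their cargo, 13 encode lysosomal proteins and 3 encode the MiT/TFE transcription factors that drive both sets. Each member was read from the array feature annotated with its symbol alone, taking the brightest over the 9 arrays where there were several. In this way 37 of the 38 were measured among 22180 genes, 21 of them in autophagy, 13 in the lysosome and 3 as MiT/TFE factors. Optn, which encodes the cargo receptor optineurin, was not analysed here.

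The cells were TAMH, a hepatocyte line derived from the liver of mice that carry a transforming growth factor alpha transgene. All groups were grown in the same medium with dexamethasone, nicotinamide, insulin, transferrin and selenium. For 9 h, cells received medium alone, diquat at 18 µM or paraquat at 126 µM, and each treatment has 3 Affymetrix Mouse Gene 2.1 ST arrays. Diquat and paraquat are bipyridylium herbicides that accept electrons from cellular enzymes and pass them to oxygen. The doses of the 2 compounds differ, so values are set side by side and their difference is one between these treatments and not between the compounds at a common dose. Whether each array holds 1 dish, and whether the dishes came from independent cultures, is not stated in the labels. Each p-value therefore reflects the variation among these samples, part or all of which could be technical.

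Autophagy encloses part of the cytoplasm in a double membrane that closes and fuses with the lysosome. The ULK1 kinase complex starts the process, the class III PI3-kinase complex marks the membrane with a phosphoinositide, and 2 conjugation reactions attach ATG8 proteins (the LC3 and GABARAP families) to the growing membrane, where cargo receptors such as p62 bind them. The lysosome, kept acidic by a proton pump, degrades the content with hydrolases. In hepatocytes the pathway is known for removing damaged mitochondria, protein aggregates and lipid, and TFEB, TFE3 and MITF are known to activate genes of both organelles through E-box motifs in their promoters.

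Array values are log2 levels from RMA, so a difference of 1 is 2-fold, and levels of different genes are not compared because each gene has its own probes. Array medians lay between 5.95 and 6.04. A level near or below these medians cannot be separated from background here. Over all genes the diquat arrays lay farthest from their group mates. Their root-mean-square distances were 0.102, 0.115 and 0.134 for replicates 1, 2 and 3, against 0.0714 to 0.0878 for the control and paraquat arrays. Over the 37 members control replicate 3 lay farthest, at 0.0921, and the diquat arrays stood at 0.0709, 0.0801 and 0.0904. Among the 37 members, control replicate 3 was the lowest of the 3 control arrays for 22, while diquat replicate 3 and paraquat replicate 1 were each the highest of their group for 21. Where a member's call depended on 1 array, the value without that array is given.

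With diquat, 7 of the 37 members rose and 1 fell, and the other 29 did not pass. The rises were Sqstm1, Wipi2 and Gabarapl1 in autophagy, Npc1, Atp6v1h and Ctsl in the lysosome, and the transcription factor gene Tfe3, while Tfeb fell. They lay between 0.15 and 0.44 on the log2 scale, so none reached 2-fold. Calls are those of limma with a Benjamini-Hochberg adjusted p under 0.05 over all 22180 genes. At that threshold 7.02% of all genes were called for diquat, 4.13% higher and 2.89% lower, against 21.6% of the members. In a separate fit of the 13126 genes with a mean log2 level of at least 6, which all members but Tfeb reach, 14.4% were called. That fit adjusts over fewer genes, and Atg9a and Atg12 also passed in it, so 14.4% is not a like background for 21.6%. The members were chosen with earlier results of these data known, so whether they are called more often than other genes was not tested. Without control replicate 2 the number of members called was 5 in place of 8, and the share of all genes called was 3.62%. The median log2 change was 0.06 over the members and -0.02 over all genes.

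With paraquat, 4 of the 37 members rose, 0 fell and 33 did not pass. The rises were Sqstm1, Wipi2, Npc1 and Ctsl, which had also passed with diquat, and the control arrays are shared by the 2 comparisons. Among all genes 4.57% were called for paraquat, 2.33% higher and 2.24% lower, against 10.8% of the members. In the separate fit of genes with a mean log2 level of at least 6 the share was 9.66%. Tfe3 also passed in that fit, so 9.66% is not a like background for 10.8%. The median log2 change was 0.02 over the members and 0.00 over all genes. Because cells were measured in bulk, fewer cells of a type and less RNA per cell cannot be told apart in any of these values.

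Some members that did not pass also stood on one side of the controls: 8 above and 3 below of 29 with diquat, and 6 above and 1 below of 33 with paraquat. Counting all 37 members, with diquat the 3 treated arrays lay entirely above the 3 control arrays for 15 members and entirely below for 4. Over all genes such a separation was found in 21.3% with diquat, 10.1% higher and 11.2% lower. With paraquat it was found for 10 members above and 1 below, against 19.4% of all genes, 9.05% higher and 10.4% lower. These shares include the genes that passed. The share among all genes that did not pass is not given here, so the counts of 29 and 33 have no like background.

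**Figure D1:**
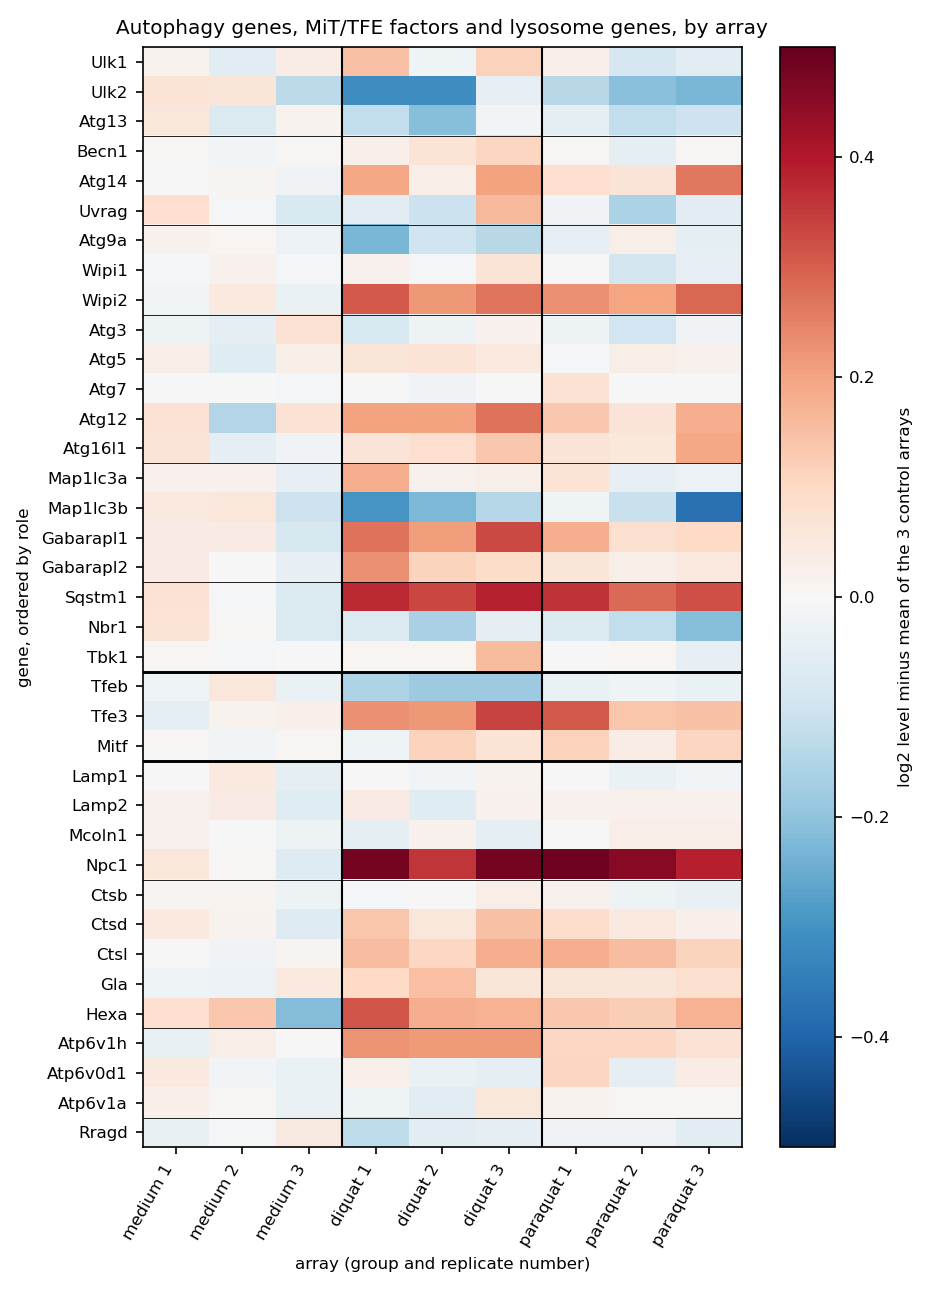
Heat map of the 37 measured members (rows, ordered by role, with heavy lines between autophagy, MiT/TFE and lysosome genes) in each of the 9 arrays (columns), coloured by the log2 level minus the mean of the 3 control arrays. Npc1 and Sqstm1 are red in all 6 treated arrays, and Tfeb is blue in the 3 diquat arrays.

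The initiation and membrane-marking steps showed no member past the test. Ulk2, one of the paired ULK kinases, had the widest differences: it stood at 9.32, 9.31 and 9.12 in medium, 8.94, 8.94 and 9.21 with diquat and 9.11, 9.04 and 9.02 with paraquat. The third diquat array lay among the controls and the paraquat arrays lay just under them. The log2 changes were -0.22 ± 0.08 (SE, limma adjusted p = 0.139) and -0.19 ± 0.08 (SE, limma adjusted p = 0.264). Without diquat replicate 3 the change with diquat was -0.31 and passed (limma adjusted p = 0.0217). Ulk1 and Atg13, the adaptor of the same complex, differed from controls by at most 0.12 in size with either compound. The change of Atg13 with diquat, -0.12, was -0.07 without diquat replicate 2.

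Of the class III PI3-kinase complex, Atg14, the subunit that directs the kinase to autophagy, read 7.91, 7.92 and 7.89 in medium, 8.10, 7.94 and 8.11 with diquat and 7.99, 7.97 and 8.17 with paraquat. All treated arrays lay above the controls. The changes of 0.14 (limma adjusted p = 0.212 and 0.333) did not pass with either compound, and without paraquat replicate 3 the change with paraquat was 0.07. Becn1, which encodes the scaffold Beclin 1, changed by 0.07 and -0.01, and Uvrag, which encodes the subunit of the endosomal form of the complex, by 0.00 and -0.08, none of them past the test.

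Among membrane suppliers and phosphoinositide readers, Wipi2 rose with both compounds. WIPI2 binds the marked membrane and brings in the ATG16L1 conjugation complex. Its level was 9.47, 9.53 and 9.45 in medium, 9.79, 9.70 and 9.75 with diquat and 9.71, 9.68 and 9.77 with paraquat. The treated arrays did not overlap the controls. The rise was 1.20-fold with diquat (log2 0.26 ± 0.04 SE, limma adjusted p = 0.00421) and 1.18-fold with paraquat (log2 0.24 ± 0.04 SE, limma adjusted p = 0.00905). Its relative Wipi1 changed by 0.03 and -0.04 and did not pass. Atg9a, which encodes the lipid scramblase of the seed vesicles, was 8.93, 8.92 and 8.88 in medium and 8.68, 8.81 and 8.77 with diquat, a log2 change of -0.16 just short of the threshold (limma adjusted p = 0.0576), while the paraquat arrays at 8.87, 8.94 and 8.86 overlapped the controls. Without diquat replicate 2 the change with diquat was -0.19 and passed (limma adjusted p = 0.0366).

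None of the 5 measured genes of the conjugation machinery passed. The largest difference was in Atg12, the ubiquitin-like protein joined to ATG5: 9.14, 8.92 and 9.14 in medium, 9.27, 9.27 and 9.34 with diquat and 9.20, 9.13 and 9.25 with paraquat. Control replicate 2 lay well under its mates. The log2 change with diquat was 0.23 ± 0.06 (SE, limma adjusted p = 0.0554), and with paraquat 0.13 (limma adjusted p = 0.383). Without control replicate 2 these changes were 0.15 and 0.05. Atg16l1, the partner that places the ATG12-ATG5 conjugate on the membrane, changed by 0.09 and 0.10 (0.06 for paraquat without paraquat replicate 3), and the enzymes and acceptor Atg3, Atg5 and Atg7 by between -0.05 and 0.06, all short of the threshold.

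The 4 ATG8 genes did not move together. Gabarapl1 rose 1.21-fold with diquat, from 10.21, 10.21 and 10.09 in medium to 10.44, 10.38 and 10.50 (log2 0.27 ± 0.05 SE, limma adjusted p = 0.00937). With paraquat it read 10.35, 10.25 and 10.27, above every control array but under every diquat array, and the change of 0.12 did not pass (limma adjusted p = 0.268). Gabarapl2 followed the same order with smaller differences, 0.14 with diquat (limma adjusted p = 0.0861) and 0.05 with paraquat. Map1lc3b, the LC3 gene most used as a marker of autophagosomes, read lower in the diquat arrays than in any control, at 11.06, 11.07 and 10.91 in medium, 10.72, 10.79 and 10.87 with diquat and 10.99, 10.90 and 10.64 with paraquat. Its changes of -0.22 (95% interval -0.41 to -0.03) and -0.17 (-0.36 to 0.02) were not past the adjusted threshold (limma adjusted p = 0.167 and 0.4). Without paraquat replicate 3 the change with paraquat was -0.07. Map1lc3a changed by 0.08 and 0.00.

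Of the cargo receptors and their kinase, Sqstm1 rose. It encodes p62, which binds ubiquitinated cargo and LC3 and also holds KEAP1, the repressor of NRF2. The gene stood at 11.23, 11.15 and 11.09 in medium, 11.53, 11.49 and 11.54 with diquat and 11.52, 11.44 and 11.48 with paraquat. The 6 treated arrays lay within 0.10 of one another and all above the highest control. The rise was 1.29-fold with diquat (log2 0.36 ± 0.04 SE, limma adjusted p = 0.000824) and 1.25-fold with paraquat (log2 0.32 ± 0.04 SE, limma adjusted p = 0.00228). Nbr1, a second ubiquitin-binding receptor, changed by -0.09 and -0.14 (limma adjusted p = 0.343 and 0.231), and Tbk1, the kinase that phosphorylates such receptors, by 0.06 and -0.01, none past the test.

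**Figure D2:**
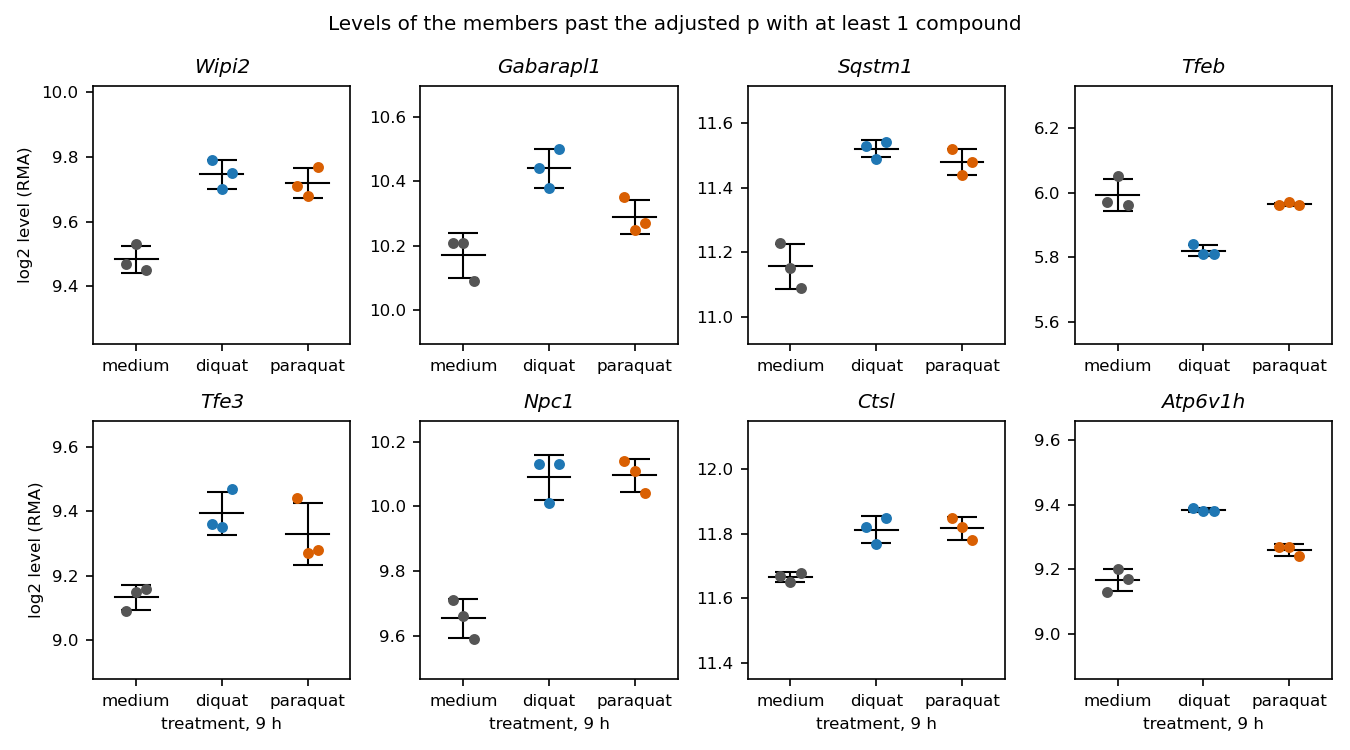
Log2 level (RMA) of the 8 members past the adjusted p with at least 1 compound, in medium, diquat at 18 µM and paraquat at 126 µM. Points are arrays, horizontal lines the mean of 3 and bars the standard deviation, and every panel spans the same range of 0.8. Wipi2, Sqstm1, Npc1 and Ctsl sit above the controls with both compounds, while Gabarapl1 and Atp6v1h with paraquat lie between control and diquat.

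The 3 MiT/TFE factor genes differed from one another. Tfe3 rose 1.20-fold with diquat, from 9.09, 9.15 and 9.16 to 9.36, 9.35 and 9.47 (log2 0.26 ± 0.05 SE, limma adjusted p = 0.0179). With paraquat it read 9.44, 9.27 and 9.28, above all controls, and the change of 0.20 stayed short of the threshold (limma adjusted p = 0.0757). The call with diquat was lost without control replicate 1 (limma adjusted p = 0.0749), control replicate 2 (0.0595) or diquat replicate 3 (0.0504).

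Tfeb fell 1.13-fold with diquat, from 5.97, 6.05 and 5.96 to 5.84, 5.81 and 5.81 (log2 -0.17 ± 0.04 SE, limma adjusted p = 0.0172). The paraquat arrays at 5.96, 5.97 and 5.96 overlapped the controls. These levels lie at the array medians, where background cannot be separated, and the call was lost without control replicate 2 (log2 -0.15, limma adjusted p = 0.071), after centring the arrays on their medians (log2 -0.14, limma adjusted p = 0.0693) and in a fit of medium and diquat alone (log2 -0.17, limma adjusted p = 0.0533). Mitf changed by 0.05 and 0.09 and did not pass.

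Among lysosomal membrane proteins, Npc1 had the largest rise of any member with both compounds. NPC1 exports cholesterol from the lysosome. Its level was 9.71, 9.66 and 9.59 in medium, 10.13, 10.01 and 10.13 with diquat and 10.14, 10.11 and 10.04 with paraquat. Every treated array lay above every control. The rise was 1.35-fold with diquat (log2 0.44 ± 0.05 SE, limma adjusted p = 0.00057) and 1.36-fold with paraquat (log2 0.44 ± 0.05 SE, limma adjusted p = 0.0007). A second feature of the gene lay near background at means of 5.83, 5.88 and 5.90 in medium, diquat and paraquat. Averaging both features lowered the changes to 0.25 and 0.26.

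The other lysosomal membrane genes stayed close to the controls. Lamp1 and Lamp2, the abundant glycoproteins that line the organelle, changed by 0.00 and 0.00 with diquat and by -0.02 and 0.02 with paraquat. The 95% interval for Lamp1 with diquat ran from -0.08 to 0.08. Mcoln1, the calcium channel of the lysosome, changed by -0.02 and 0.02, with an interval from -0.10 to 0.06 for diquat.

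Of the 5 hydrolase genes, Ctsl rose with both compounds by a small amount. Cathepsin L is a cysteine protease. The gene read 11.67, 11.65 and 11.68 in medium, 11.82, 11.77 and 11.85 with diquat and 11.85, 11.82 and 11.78 with paraquat, with no overlap. The rise was 1.11-fold with each compound (log2 0.15 ± 0.04 SE, limma adjusted p = 0.0387 with diquat and 0.0449 with paraquat). Among the members called, Ctsl lost its calls under the most alternatives: 8 of 16 alternatives lost the call with diquat and 9 of 16 with paraquat. It was lost for both compounds without any 1 of the control arrays, at limma adjusted p between 0.0853 and 0.137 for diquat and between 0.0968 and 0.162 for paraquat. It was also lost with diquat without diquat replicate 1 or 3 (0.0966 and 0.0853) or paraquat replicate 2 (0.058). With paraquat it was lost without paraquat replicate 1, 2 or 3 (0.136, 0.133 and 0.0707) or diquat replicate 1 (0.0645).

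The remaining hydrolases did not pass. Ctsd, an aspartic protease, changed by 0.11 and 0.05, Gla, the alpha-galactosidase gene, by 0.10 and 0.07, and Hexa, a beta-hexosaminidase subunit, by 0.22 and 0.14. Hexa had a wide spread in medium, at 7.24, 7.29 and 6.94, and its diquat arrays at 7.47, 7.34 and 7.33 all lay above. Without control replicate 3 its changes were 0.12 and 0.04. Ctsb, which encodes cathepsin B, changed by 0.01 and -0.01.

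Of the 3 proton pump genes, Atp6v1h rose with diquat. It encodes the H subunit of the cytosolic V1 sector, which is needed for activity of the assembled pump. Its level was 9.13, 9.20 and 9.17 in medium, 9.39, 9.38 and 9.38 with diquat and 9.27, 9.27 and 9.24 with paraquat. The 3 groups did not overlap, with paraquat between the others. The rise with diquat was 1.16-fold (log2 0.22 ± 0.03 SE, limma adjusted p = 0.00387), and the change of 0.09 with paraquat did not pass (limma adjusted p = 0.191). Atp6v0d1 and Atp6v1a, further subunits of the membrane and cytosolic sectors, changed by between -0.02 and 0.03. Rragd, whose product is a GTPase that recruits mTORC1 to the lysosome, read 6.26, 6.29 and 6.34 in medium, 6.17, 6.24 and 6.25 with diquat and 6.28, 6.28 and 6.24 with paraquat, changes of -0.08 and -0.03 that did not pass and lie close to the array medians.

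**Figure D3:**
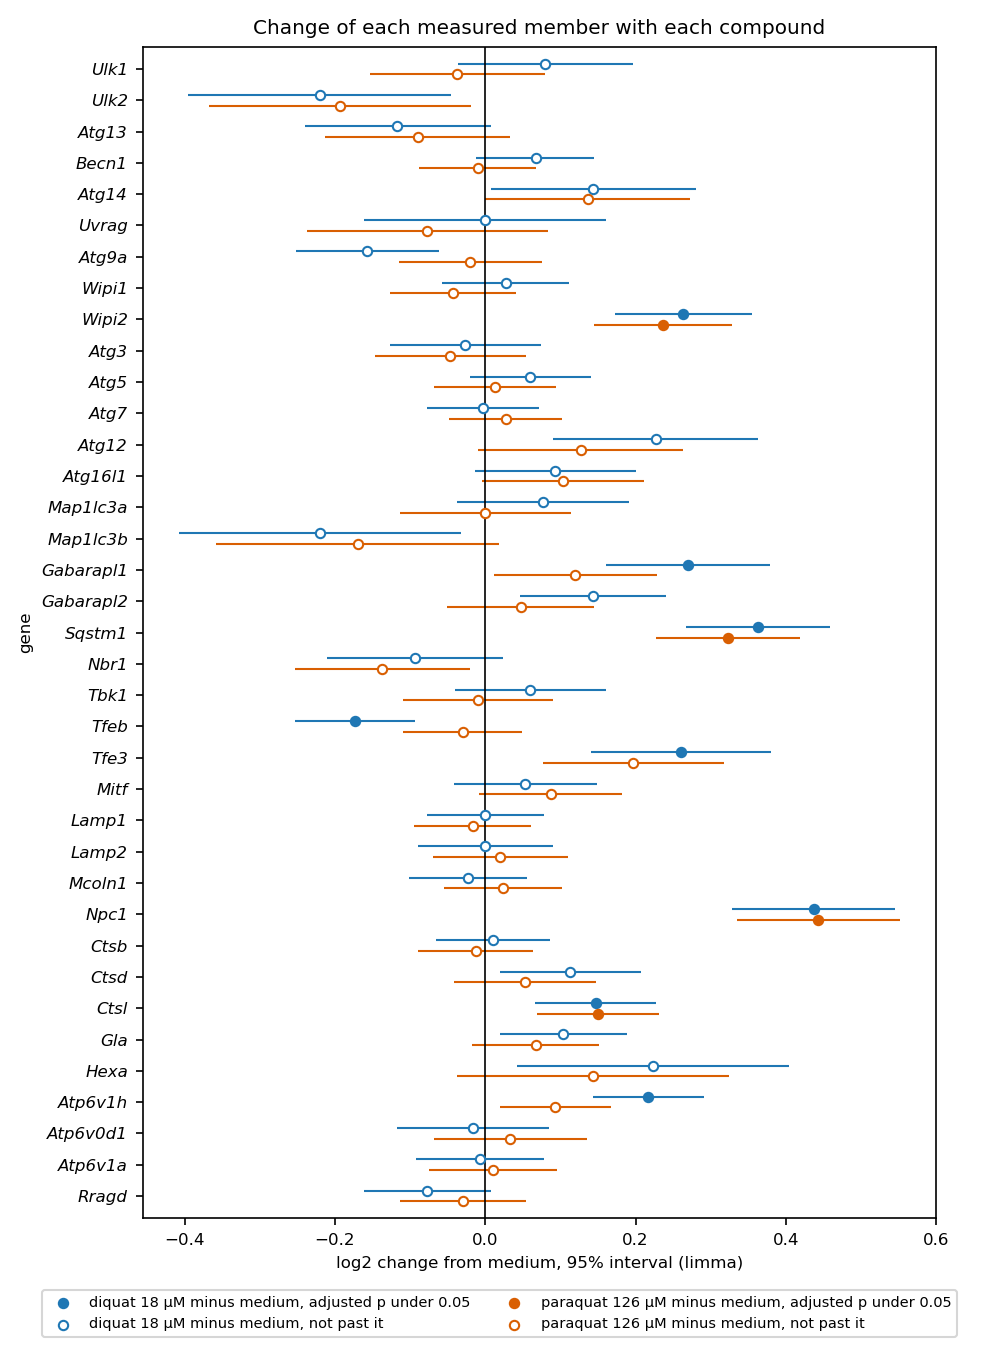
Log2 change from medium of each of the 37 members, with the 95% interval from limma, for diquat at 18 µM (blue) and paraquat at 126 µM (orange). Filled points passed an adjusted p under 0.05: 8 for diquat and 4 for paraquat.

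Described apart, the autophagy members had 3 rises and 0 falls of 21 with diquat and 2 rises and 0 falls with paraquat, with median log2 changes of 0.06 and -0.01. The lysosome members had 3 rises and 0 falls of 13 with diquat and 2 rises and 0 falls with paraquat, with medians of 0.01 and 0.03, the first of which was -0.03 after quantile normalization. The medians over all genes were -0.02 and 0.00. In each array the mean difference of the 13 lysosome members from their control means lay between -0.04 and 0.02 in medium, 0.07 and 0.10 with diquat and 0.07 and 0.09 with paraquat. For the 21 autophagy members the corresponding ranges overlapped: -0.02 to 0.03, 0.01 to 0.10 and -0.01 to 0.04. Of the 13 lysosome members, 7 with diquat and 10 with paraquat changed by more than 0, the largest with diquat being Npc1 (0.44), Hexa (0.22) and Atp6v1h (0.22). In the further lists described below, treated and control ranges overlapped for 32 hydrolases, 21 membrane and sorting genes, 26 autophagy core genes and 13 genes of selective autophagy. For 13 pump subunits they did not: -0.02 to 0.02, 0.03 to 0.10 and 0.03 to 0.07. Nor did they for 27 genes of mTORC1 and nutrient sensing: -0.01 to 0.02, 0.05 to 0.09 and 0.04 to 0.08.

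The direct comparison of paraquat with diquat called 0 of the 37 members and 0 of all 22180 genes in limma, while 5 members and 10.7% of all genes had an unadjusted p under 0.05. Those 5 were Tfeb, Atp6v1h, Atg9a, Gabarapl1 and Ulk1. The paraquat arrays lay entirely above the diquat arrays for 2 members and entirely below for 6, against 5.36% and 5.18% of all genes. Gabarapl1 was lower with paraquat by 0.15 (95% interval -0.26 to -0.04, limma adjusted p = 0.396), Atp6v1h by 0.12 (-0.20 to -0.05, limma adjusted p = 0.344), and Tfeb was higher by 0.14 (0.06 to 0.22, limma adjusted p = 0.338). For the members called with both compounds the intervals of the difference were -0.14 to 0.06 for Sqstm1, -0.12 to 0.07 for Wipi2, -0.10 to 0.12 for Npc1 and -0.08 to 0.08 for Ctsl. A call with diquat that missed the threshold with paraquat was therefore not shown to differ between the treatments.

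Promoter sequences are shown for 3 members. Sqstm1 rose and holds no E-box core in the window searched, and Lamp1 and Mcoln1 hold several there and did not pass. The window of Ctsl, which rose with both compounds and holds 1 core, is not printed. The window from 250 bases before to 50 after the gene start was searched on both strands in RefSeq promoters of the mouse build GRCm38.p6, in which 31 of the 38 members had an entry. Npc1 and Atp6v1h, which rose, are among the 7 that were not searched. The palindrome CACGTG, the core of the element bound by MiT/TFE factors, was present in 12 of these 31 members, 7 of 10 in the lysosome and 5 of 18 in autophagy, against 8.09% of 27025 genes. The extended palindrome named CLEAR, which contains this core, was found in 0 members and in 0.37% of genes. Of the 12 members with the core, all measured, Ctsl was the 1 that passed with either compound, and their median log2 change was 0.03 with diquat and 0.03 with paraquat. The 18 measured members with an entry but no core included Sqstm1, Wipi2, Gabarapl1, Tfe3 and Tfeb, and had medians of 0.01 and -0.03. Of these 12 entries, those of Ctsl, Atp6v1a and Atg7 start 252, 443 and 27969 bases inside the span RefSeq gives the gene, so these windows may not be the main promoters. The same holds for some entries without the core, such as that of Ulk2 (242 bases inside) and an entry of Tfeb (48707 bases inside).

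The antioxidant response core TGACNNNGC, known from NRF2 targets, was found in 7 of 31 members (Ulk2, Atg13, Map1lc3b, Mitf, Ctsd, Hexa and Atp6v1a) and in 14% of genes. The matches of Mitf lie in an entry that starts 122815 bases inside the gene's span, and that of Ulk2 in an entry 242 bases inside. The motif TGATGNAA, a form of the element bound by ATF4 with C/EBP factors, was found in 2 of 31 (Ctsl and Atp6v0d1) and in 4.51% of genes. In the printed windows of 250 bases before the start, capitals mark CACGTG. Sqstm1 (chr11:50210821-50211070, minus strand), which rose with both compounds, held none of the 4 motifs. Lamp1 (chr8:13158911-13159160, plus strand) held 4 copies of CACGTG and Mcoln1 (chr8:3500269-3500518, plus strand) held 2, and neither gene passed the test. A match is a run of letters and not a binding site. Sequence outside the window was not searched, so a window without a match does not show that the gene lacks the element.
Sqstm1: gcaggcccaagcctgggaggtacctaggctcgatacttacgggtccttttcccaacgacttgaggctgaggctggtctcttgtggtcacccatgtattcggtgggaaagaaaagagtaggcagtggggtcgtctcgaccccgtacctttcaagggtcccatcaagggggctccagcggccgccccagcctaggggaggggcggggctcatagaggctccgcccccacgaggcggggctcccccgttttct
Lamp1: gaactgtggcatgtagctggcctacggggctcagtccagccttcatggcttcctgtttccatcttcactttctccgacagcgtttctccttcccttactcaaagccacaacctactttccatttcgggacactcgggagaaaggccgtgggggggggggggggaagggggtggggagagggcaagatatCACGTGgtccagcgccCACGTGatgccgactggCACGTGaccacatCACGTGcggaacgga
Mcoln1: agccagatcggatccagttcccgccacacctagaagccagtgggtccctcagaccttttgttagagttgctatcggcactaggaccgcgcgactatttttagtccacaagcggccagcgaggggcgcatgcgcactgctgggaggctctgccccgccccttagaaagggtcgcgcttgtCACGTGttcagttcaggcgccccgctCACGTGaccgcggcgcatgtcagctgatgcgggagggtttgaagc

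Other genes of the pathway were taken from 6 lists, of which 132 genes were measured. With diquat 9 rose and 7 fell (12.1% called), and with paraquat 7 rose and 5 fell (9.09%), against 7.02% and 4.57% of all genes. In the separate fit of genes with a mean log2 level of at least 6 the shares of all genes were 14.4% and 9.66%. The calls of the 132 genes in that fit are not given here, so these shares are not like backgrounds for 12.1% and 9.09%. The lists, too, were chosen with earlier results of these data known. The median log2 changes of the 132 genes were 0.01 and -0.01. Of 26 further autophagy core genes, 1 rose and 1 fell with diquat and 0 rose and 2 fell with paraquat. Vamp8, the SNARE for fusion of autophagosomes with lysosomes, fell 1.24-fold and 1.25-fold, from 10.40, 10.42 and 10.28 in medium to 10.04, 10.11 and 10.02 with diquat and 10.09, 9.97 and 10.06 with paraquat (limma adjusted p = 0.00502 and 0.00449). Tecpr1, a tethering factor of the lysosome, rose by 0.20 with diquat, and Atg4a, a protease that processes ATG8 proteins, fell by 0.19 with paraquat. Of 13 genes of selective autophagy, Tollip, a ubiquitin-binding adaptor, was the 1 that passed with each compound, rising by 0.20 and 0.23.

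Of 32 further lysosomal hydrolases, 1 rose and 4 fell with diquat, and 0 rose and 2 fell with paraquat. Lipa, the acid lipase that releases cholesterol and fatty acids in the lysosome, fell by 0.22 and 0.25 on the log2 scale with diquat and paraquat, and Ctso, which encodes cathepsin O, by 0.24 and 0.30 (limma adjusted p = 0.0271, 0.0213, 0.0151 and 0.00498). Man2b1, a lysosomal mannosidase gene, and Smpd1, the acid sphingomyelinase gene, passed with diquat at log2 changes of -0.20 and -0.19. Lgmn, which encodes the protease legumain, rose by 0.24 with diquat. Of 21 membrane and sorting genes, Sort1, the sorting receptor sortilin, was the 1 that passed, with log2 changes of -0.30 and -0.36, or -0.20 and -0.18 on the mean of its features. Of 13 further pump subunits, Atp6v0b rose with both compounds (0.18 and 0.21) and Atp6v1c1 with diquat (0.18), and none fell.

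Of 27 genes of mTORC1 and nutrient sensing at the lysosome, 4 rose and 1 fell with diquat and 5 rose and 0 fell with paraquat. That is 18.5% called for each, against 7.02% and 4.57% of all genes in the same fit. The 14.4% and 9.66% of genes with a mean log2 level of at least 6 come from the separate fit and are not like backgrounds. Because the list was chosen with earlier results of these data known, an excess of calls in it was not tested. Sesn2, a stress-induced inhibitor of mTORC1, rose 1.78-fold and 1.62-fold, from 7.51, 7.39 and 7.39 to 8.26, 8.24 and 8.28 with diquat and 8.15, 8.11 and 8.12 with paraquat (limma adjusted p = 2.62e-06 and 9e-06). Fnip1 and Fnip2 encode partners of folliculin, the protein that acts on the Rag GTPases and through them on TFEB and TFE3. Fnip1 rose 1.34-fold and 1.37-fold (limma adjusted p = 0.000839 for each) and Fnip2 1.29-fold and 1.23-fold (limma adjusted p = 0.00709 and 0.026). Folliculin itself, Flcn, rose by 0.28 with paraquat, with 0.17 for diquat short of the threshold (limma adjusted p = 0.06). Rheb, the GTPase that switches mTORC1 on, rose by 0.21 with each compound, and Sesn3 fell by 0.23 with diquat. When each array was left out in turn, 4 of the 16 diquat calls over the 6 lists held in all 9 fits (Vamp8, Fnip1, Fnip2 and Sesn2), and 5 of the 12 paraquat calls did (Vamp8, Ctso, Flcn, Fnip1 and Sesn2). The other 12 and 7 were each lost without at least 1 array, Man2b1 and Atp6v1c1 in 8 of the 9 fits.

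**Figure D4:**
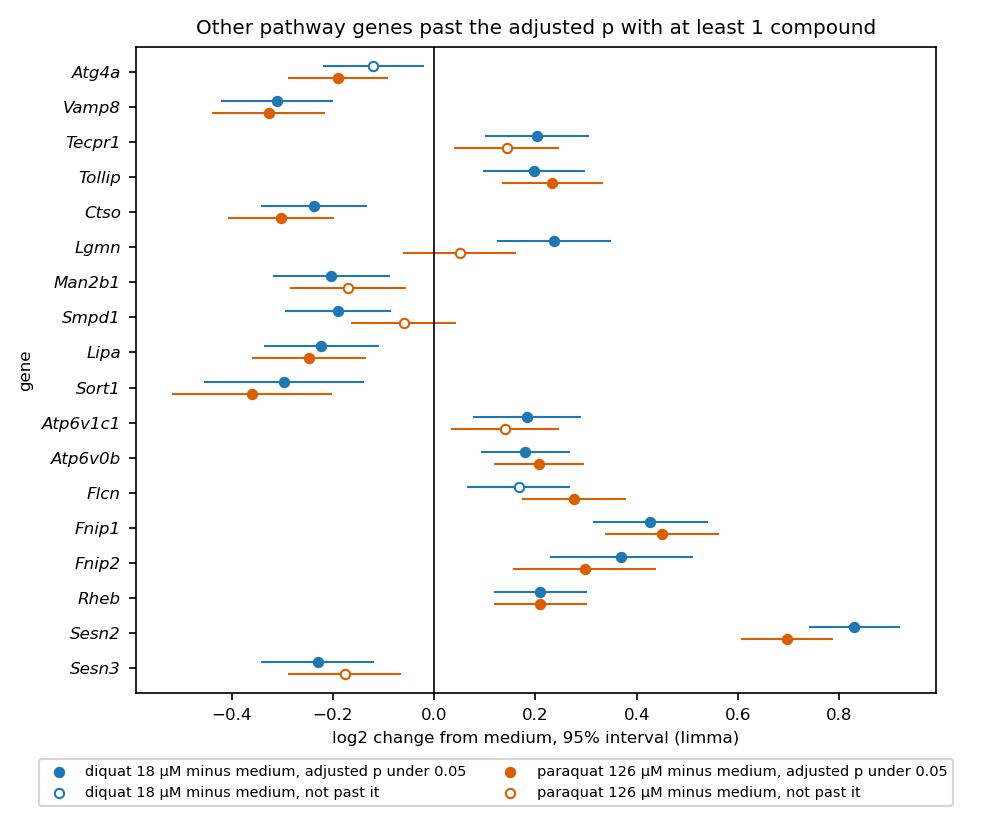
Log2 change from medium, with the 95% interval from limma, of the 18 other pathway genes that passed an adjusted p under 0.05 with diquat at 18 µM (blue) or paraquat at 126 µM (orange). Filled points passed. Sesn2, Fnip1 and Fnip2 lie farthest to the right, and Sort1, Vamp8 and Ctso farthest to the left.

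Cell type markers were read beside these results. The hepatocyte gene Alb stood at 12.73 in each group, and of 7 hepatocyte markers 0 rose, 2 fell with diquat and 1 with paraquat, Ttr among them (log2 -0.34 and -0.32). Of 7 macrophage markers, Cd68, which is also a glycoprotein of the lysosomal membrane, rose by 0.40 with diquat (limma adjusted p = 0.0343), with 0.35 for paraquat short of the threshold (0.0732). The Cd68 call was lost in 7 of the 9 fits that left out 1 array. The other 6, among them Ptprc, Adgre1 and Csf1r, had group means between 5.28 and 6.80 and did not pass. The mean level over the macrophage list lay between 6.23 and 6.25 in medium, 6.15 and 6.26 with diquat and 6.27 and 6.33 with paraquat. Of 7 stellate and fibroblast markers, 1 fell with diquat, while Dcn (11.07 in medium) and Col1a1 (9.18) were well above the array medians in all groups. Of 6 endothelial markers 0 were called by limma with either compound, with 1 at an unadjusted p under 0.05 for diquat and 0 for paraquat. The part of other cell types in the results was not tested.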

How the data were processed

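Total RNA of TAMH cells was hybridized to 9 arrays, per the labels' protocols. The deposited log2 values were made by the authors with Affymetrix Expression Console 1.1 and RMA, per the submitters' processing notes. RMA as commonly run subtracts background, makes the arrays' distributions equal and combines the probes of a feature. The medians of the deposited arrays still differed slightly, so a further scaling was among the alternatives. The RMA settings and the annotation's build were not given in the sources used. Such scaling would hide a change shared by most genes.

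Values of the 34472 features in the deposited table ran from 3.89 to 13.19. Of the features, 23521 carried 1 gene symbol, 1814 several and 9137 none, and 23328 were matched by Entrez identifier to RefSeq. The brightest feature per symbol gave 22180 genes. All 9 arrays entered 1 limma fit (limma 3.58.1, R 4.3.3; lmFit and eBayes, 1 mean per group, no covariates), with Benjamini-Hochberg adjustment over all genes and a threshold of 0.05. Intervals are 95% intervals of that fit. The number of arrays, 3 per group, limits the precision. The fit was tested on simulated data with known changes.

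Groups and replicate numbers come from the sample titles. Members, role groups, pathway lists, motifs and the naming rule were chosen with earlier results of these data known. The rule names in full the members past the threshold, in role groups without one the member with the largest change, and up to 3 genes of each pathway list per direction and comparison. Of the genes outside this rule, Atg9a, Map1lc3b, Hexa, Smpd1, Flcn, Rheb and the markers were chosen for description after their values were seen. Alternatives were the replicate number as a block, median centring, quantile normalization, eBayes with trend and robust settings, a minimum mean log2 level of 6, fits to just the pair of groups, averaging all features of a gene and leaving out each array. For the other pathway genes and the markers these alternatives were chosen after seeing the data. Sequences are RefSeq promoters of GRCm38.p6.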

Additional observations from a re-analysis of the deposited data

How the results depend on the processing

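For diquat against medium the number of members called was 8, and between 6 and 10 under the 7 alternatives that kept all arrays of the groups compared. It was 5 to 9 over the 9 fits that each left out 1 array, the lowest without control replicate 2. For paraquat the number was 4, and 3 to 5 under all 16 alternatives, with 3 to 4 when 1 array was left out. Between the compounds it was 0 under all 16. Sqstm1, Wipi2 and Npc1 passed with both compounds, and Gabarapl1 and Atp6v1h with diquat, under every one of the 16 alternatives, and no called change turned direction. Tfeb was not tested under the filter on dim genes.

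Scaling changed the balance of directions. Among members with diquat it was 7 and 1 as deposited, 8 and 0 after centring and 7 and 3 after quantile normalization, where Ulk2 (-0.26, limma adjusted p = 0.03) and Atg9a (-0.20, limma adjusted p = 0.0275) joined Tfeb. Over all genes the higher share of diquat calls was 58.9% without rescaling, 77.5% with centring and 45.2% with quantile normalization. The number of all genes called for diquat, 1558, was 887, 802 and 1000 without control replicate 1, 2 and 3 and 959 in a fit of medium and diquat alone. For paraquat, 1014 became 596 and 574 without control replicate 1 and 2, and 575 and 574 without paraquat replicate 2 and 3. Atg12 passed with diquat with the replicate block (limma adjusted p = 0.0289), after centring (0.0499), with the trend (0.0446) and with the dim filter (0.0345). These settings all kept control replicate 2, without which its change was 0.15 and did not pass. Tfe3 passed with paraquat after quantile normalization (0.0447) and with the dim filter (0.0475).

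Whether the replicate numbers pair the samples was not settled. Deviations of arrays with the same number correlated between -0.192 and 0.198, with 3 of 9 pairs over 0.1. With different numbers the range was -0.331 to 0.284, with 4 of 18 over 0.1. Between medium and paraquat the same numbers gave 0.157, 0.134 and 0.089, and different numbers -0.119 to -0.017. Same-number pairs with a diquat array had both signs. The descriptions of several treated arrays give another number than their titles. With the number as a block, 8 members were called for diquat, 3 for paraquat and 0 between the compounds. Without scanner files, levels near the array medians, such as those of Tfeb and Rragd, have no detection limit here.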
